A study of Danio rerio with 9 samples.

Results

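The 10 genes described here are the zebrafish vascular endothelial growth factor (VEGF) genes *vegfaa* and *vegfab*, the receptor genes *kdrl*, *kdr*, *flt1* and *flt4*, and the neuropilin genes *nrp1a*, *nrp1b*, *nrp2a* and *nrp2b*. They were taken by gene name from the 32520 genes listed for skeletal muscle. The rule uses no measured value, but it was set with earlier results of these data known. All 10 were found, all 10 had a count in every library, and all 10 passed the filter on low counts.

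VEGF-A is a secreted growth factor that drives the sprouting, growth and permeability of blood vessels. In muscle it is released largely by the fibers and acts on the endothelial cells of the capillaries around them. Its main signalling receptor is a tyrosine kinase (Vegfr2), while a second receptor (Vegfr1, the product of *flt1*) binds the same ligand tightly and limits its action, in part as a secreted form. The receptor Vegfr3 (*flt4*) is best known for lymphatic vessels, and neuropilins are co-receptors with short intracellular tails that bind both VEGF and class 3 semaphorins. Zebrafish keep duplicate genes for VEGF-A (*vegfaa* and *vegfab*) and a pair each for the neuropilins. Both *kdrl* and *kdr* encode receptors of the Vegfr2 type.

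Polyadenylated RNA was sequenced from skeletal muscle of zebrafish aged 12 months, with 3 libraries in each of 3 groups and the muscle of 2 fish pooled in each library. WT fish were wild type and untrained. The *bves* KO fish carried a CRISPR/Cas9 frameshift deletion in *bves* (also called Popdc1), a membrane protein gene of striated muscle, and were not trained either. The *bves* KO-EX fish were *bves* KO fish that swam in a flow tunnel for 8 weeks, in sessions of 1.5 h, at about 10 cm/s first and about 16 cm/s later. The sources do not say which of the mutant lines was sequenced, and there was no trained WT group, so *bves* KO-EX against WT joins genotype and training, which cannot be told apart. The tissue is bulk muscle, in which fewer cells of a type and less RNA per cell cannot be told apart.

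Total counts ran from 17422188 to 18860779 per library, and mitochondrial genes took 11.8% to 16.2% of them in WT and *bves* KO and 16.2% to 23.4% in *bves* KO-EX. Levels within a gene are given as CPM, which are counts scaled to library size after TMM normalization. Among the TMM factors *bves* KO-EX replicate 2 had the highest (1.17) and WT replicate 2 the lowest (0.763). The deposited TPM are scaled for gene length as well. The 11 fast muscle markers summed to 105370 to 132937 TPM in WT, 135244 to 149640 TPM in *bves* KO and 112669 to 154923 TPM in *bves* KO-EX. The WT range of this sum thus lay below that of *bves* KO. Taken gene by gene in CPM, the 11 markers had a median log2 fold change of 0.01 in *bves* KO against WT. It was above 0 for 6 of the 11. None of them had an unadjusted p under 0.05 in edgeR (background 16.9%). The targeted gene did not follow the labels in every library. Its level was 39.5, 57.2 and 43.8 CPM in WT replicates 1 to 3, and 7.94, 17.5 and 6.70 CPM in *bves* KO. Among the libraries with the *bves* KO-EX label, replicate 1 had 47.4 CPM, replicate 2 had 11.4 CPM and replicate 3 had 49.6 CPM. Replicates 1 and 3 therefore sat in the WT range and replicate 2 in the *bves* KO range, so results on this group are also given without replicates 1 and 3. Gene counts do not give a genotype, and every direction below that rests on this group holds for the libraries as labelled, as does the word mutant.

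Between genes, levels can be compared only per length, as TPM. In WT the order of mean TPM was *vegfab* (29.7 ± 13.4, SD, n = 3), *kdrl* (17.9 ± 8.44), *flt1* (12.6 ± 4.96) and *vegfaa* (9.90 ± 1.96), with each neighbouring pair overlapping in range. A clear step followed, down to *kdr* at 2.43 ± 1.43 TPM. The genes *nrp2b*, *nrp1b* and *nrp2a* lay close together at 1.79, 1.70 and 1.63 TPM. The lowest levels were those of *nrp1a* at 0.473 ± 0.198 TPM and *flt4* at 0.200 ± 0.0608 TPM, which overlapped. By mean TPM, *vegfab* thus stood above *vegfaa* and *kdrl* above *kdr*.

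In *bves* KO the order of the top genes was different. The mean of *kdrl* was 25.1 ± 1.77 TPM and that of *vegfab* was 24.7 ± 3.60 TPM, which overlapped. Next came *vegfaa* at 17.0 ± 3.65 TPM, which lay above *flt1* at 11.4 ± 1.05 TPM without overlap, whereas in WT these genes overlapped and *flt1* had the higher mean. In *bves* KO-EX, *vegfab* (21.8 ± 6.62 TPM), *kdrl* (14.9 ± 2.64 TPM), *vegfaa* (9.94 ± 6.40 TPM) and *flt1* (7.16 ± 1.35 TPM) overlapped from neighbour to neighbour. In both of these groups *nrp1a* (0.907 and 0.947 TPM) was clear of *flt4* (0.277 and 0.470 TPM).

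**Figure D1:**
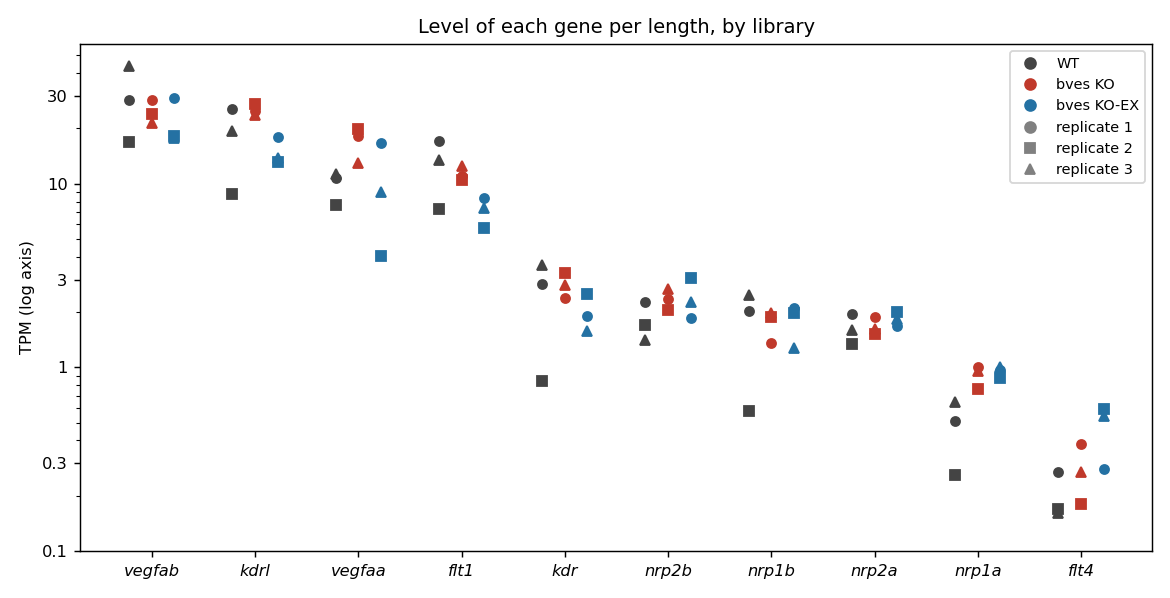
TPM of each of the 10 genes (log axis) in the 9 libraries, with color for the group and shape for the replicate. The ligand genes, *kdrl* and *flt1* form an upper set in all 3 groups, *kdr* and 3 of the neuropilins an intermediate one, and *nrp1a* and *flt4* the lowest.

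The domain annotation supplied with the counts lists the platelet-derived growth factor and VEGF C-terminal domains for both ligand genes (ENSDARG00000103542 for *vegfaa*, ENSDARG00000034700 for *vegfab*). All 4 receptor genes carry kinase and immunoglobulin domains (ENSDARG00000105215 for *kdrl*, ENSDARG00000017321 for *kdr*, ENSDARG00000019371 for *flt1*, ENSDARG00000104453 for *flt4*). The genes *nrp1a* (ENSDARG00000102153), *nrp2a* (ENSDARG00000096546) and *nrp2b* (ENSDARG00000038446) list CUB, coagulation factor, MAM and C-terminal neuropilin domains. For *nrp1b* (ENSDARG00000027290) only the first 2 kinds are listed, on a gene model of 2026 bases against 3719 to 5278 bases for the other neuropilins. The estimated counts of *kdrl* and *nrp1a* were not whole numbers in 9 of 9 libraries, and those of *nrp2a* in 1 of 9. Some of their reads were thus divided with other features, so the levels of *kdrl* and *nrp1a* are uncertain to that extent.

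Against WT, *bves* KO muscle held higher levels of *nrp1a*, *kdrl* and *vegfaa* in every library, while the other receptors, *vegfab* and the other neuropilins overlapped between the groups. None of the 10 genes was called at an adjusted p under 0.05 by edgeR's quasi-likelihood test (0 of 10, against 1.11% of all 14849 genes tested). At an unadjusted p under 0.05 edgeR gave 1 of 10 (*nrp1a*, background 16.9%), and DESeq2 called 1 of 10, again *nrp1a* (background 4.77%). The groups did not overlap for 3 of 10 genes, all higher in *bves* KO, against 21.4% of all genes in either direction and 11.2% that were higher. The median log2 fold change was 0.24 over the 10 genes and -0.03 over all genes tested.

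Against *bves* KO, the libraries labelled *bves* KO-EX had lower CPM ranges of 3 receptor genes, none of which was called. The CPM ranges of *kdrl*, *kdr* and *flt1* were below those of *bves* KO and that of *nrp2a* above it, which made 4 of 10 genes without overlap against a background of 23% (10.8% lower and 12.2% higher). Of the 10 genes, edgeR called 0 (background 1.64%) and DESeq2 called 0 (background 4.61%). At an unadjusted p under 0.05 each tool gave 2 of 10, which in edgeR were *kdrl* and *flt1* (background 15.3%). The median log2 fold change was -0.09 over the 10 genes and 0.01 over all genes.

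Against WT, *bves* KO-EX muscle had more *nrp1a*, the 1 gene of the 10 that passed (background 5.39%), and ranges of *flt4* above and *flt1* below those of WT. These 3 genes were also the ones with an unadjusted p under 0.05 (background 25.1%) and the ones without overlap (background 28%, of which 15% higher and 13% lower). DESeq2 called 2 of 10, *nrp1a* and *flt1* (background 11.8%). The median log2 fold change was -0.03 over the 10 genes and 0.01 over all genes. Non-overlap is counted in CPM, and the deposited TPM, which carry no TMM factor, overlapped for 4 of these cases. They were *kdrl* in *bves* KO against WT (23.6 to 27.1 against 8.79 to 25.5 TPM), *flt1* in *bves* KO-EX against WT (5.71 to 8.38 against 7.32 to 17.1 TPM), and *kdr* and *nrp2a* in *bves* KO-EX against *bves* KO. WT replicate 2, the library with the lowest TMM factor, had the lowest TPM of WT for *kdrl* and for *flt1*. The 3 comparisons share libraries pairwise, so a gene that stands out in one group stands out in both comparisons that use it.

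With *bves* KO-EX replicates 1 and 3 left out, the group rests on replicate 2 alone, whose spread is assumed to equal that of the other groups. Such a fit has little power to call any gene, so only fold changes are given here. The log2 fold changes against *bves* KO were -2.33 for *vegfaa*, -1.19 for *kdrl* and -1.14 for *flt1*, each further below 0 than with all 3 libraries. Against WT they were -1.65 for *vegfaa*, -1.34 for *flt1* and 1.16 for *flt4*.

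**Figure D2:**
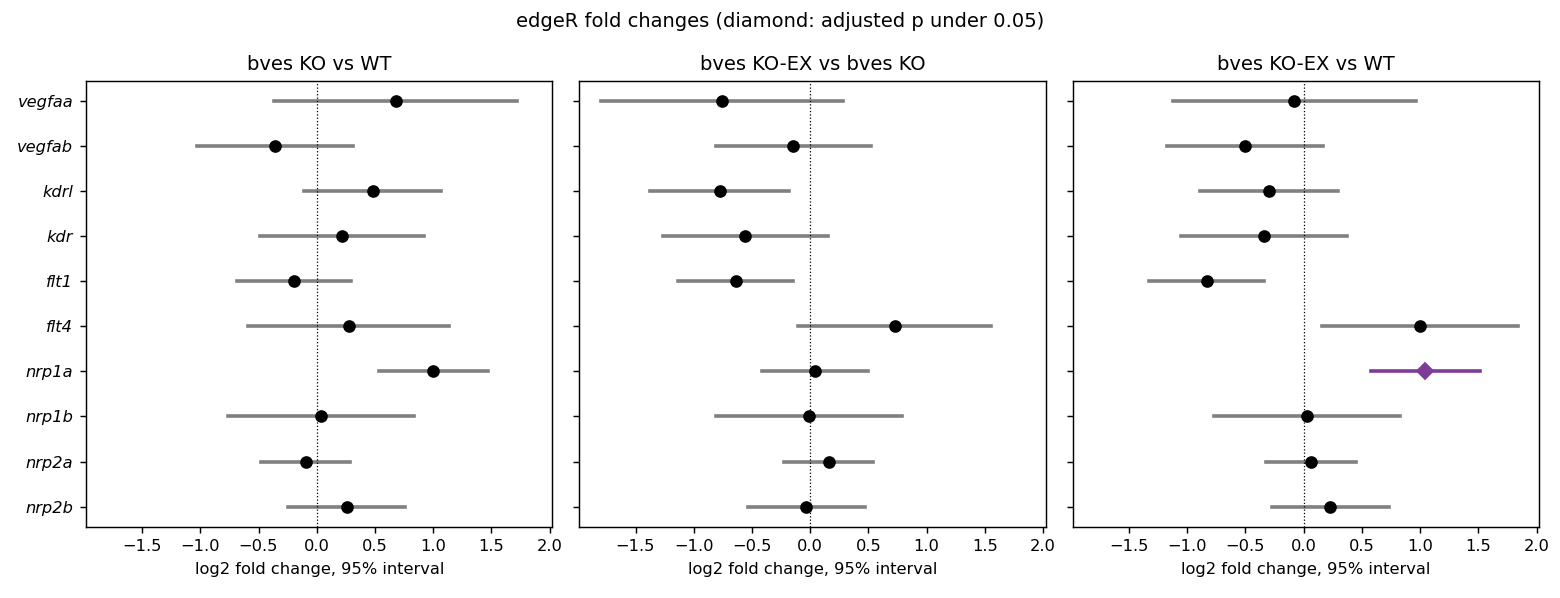
The edgeR log2 fold change of each gene with its 95% interval in the 3 comparisons, where a diamond marks an adjusted p under 0.05. The single diamond is *nrp1a* in *bves* KO-EX against WT, and the intervals of *kdrl* and *flt1* in *bves* KO-EX against *bves* KO lie below 0 without passing the adjustment.

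Of the VEGF-A genes, *vegfaa* encodes the ligand that zebrafish embryos need to form their first vessels. Its level was 25.8, 30.9 and 30.2 CPM in WT and 47.3, 57.8 and 33.9 CPM in *bves* KO. The *bves* KO libraries were all above the WT libraries, but replicate 3 only slightly. In *bves* KO-EX it was 48.6 CPM in replicate 1, 9.33 CPM in replicate 2 and 24.3 CPM in replicate 3, so this group ran from below WT to within *bves* KO. The log2 fold change was 0.68 ± 0.47 (SE) in *bves* KO against WT, with an edgeR adjusted p of 0.482. For *bves* KO-EX it was -0.76 ± 0.47 against *bves* KO (adjusted p 0.507) and -0.08 ± 0.47 against WT (adjusted p 0.935). The library with the lowest *vegfaa* was replicate 2, the one whose *bves* level was in the *bves* KO range. Without it the log2 fold change was 0.34 against WT and -0.35 against *bves* KO, and without replicate 1 it was -0.78 and -1.46.

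The paralog *vegfab* was the more abundant ligand gene per length in every library. Its level was 96.2, 90.5 and 163 CPM in WT, 98.4, 96.4 and 77.9 CPM in *bves* KO, and 117, 60.5 and 69.4 CPM in *bves* KO-EX. The groups overlapped, and the high value of WT was that of replicate 3. In edgeR the log2 fold change was -0.36 ± 0.30 in *bves* KO against WT (adjusted p 0.573) and -0.50 ± 0.30 in *bves* KO-EX against WT (adjusted p 0.330).

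Because the ligand paralogs had means that differed in opposite directions between WT and *bves* KO, the share of *vegfaa* in their summed TPM was computed, a ratio chosen after the values were seen. The share was 27.4%, 31.2% and 20.5% for WT, 38.8%, 45.4% and 37.6% for *bves* KO, and 36.3%, 18.1% and 33.8% for *bves* KO-EX. The *bves* KO libraries lay above those of both other groups without overlap (exact permutation p = 0.1 in each, two-sided, the smallest that 3 against 3 allows). Lack of overlap always gives that p with 3 against 3, so it adds no support. The share in *bves* KO differed from WT by 14.2 percentage points. By contrast, the summed TPM of both ligand genes was 39.6 ± 15.2 for WT, 41.7 ± 6.46 for *bves* KO and 31.7 ± 12.7 for *bves* KO-EX, with overlapping ranges (SD, n = 3).

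Among the receptors, *kdrl* is the Vegfr2-type gene through which most endothelial signalling runs in zebrafish, and it is widely used as an endothelial marker. Its level was 136, 79.2 and 116 CPM in WT and 146, 176 and 141 CPM in *bves* KO. All *bves* KO libraries were above all WT libraries, and WT replicate 2 was the low one of its group. In *bves* KO-EX it was 117, 68.3 and 84.2 CPM, below each *bves* KO library and overlapping WT. The log2 fold change was 0.48 ± 0.27 in *bves* KO against WT, with an edgeR adjusted p of 0.382. For *bves* KO-EX against *bves* KO it was -0.78 ± 0.27, with a 95% interval of -1.37 to -0.18, an unadjusted p of 0.0149 and an adjusted p of 0.185. Leaving out 1 library at a time gave -1.01 to -0.62 for this comparison, and the adjusted p was above 0.05 each time.

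The other Vegfr2-type gene, *kdr*, had a level of 14.1, 7.0 and 19.8 CPM in WT, 13.0, 19.5 and 15.4 CPM in *bves* KO, and 11.5, 12.1 and 8.92 CPM in *bves* KO-EX. The *bves* KO-EX libraries were all below the *bves* KO libraries, while WT spanned both. In that comparison the log2 fold change was -0.56 ± 0.32 (edgeR adjusted p 0.462). Within WT, replicate 2 was the lowest for *kdr*, and its summed slow muscle markers were 728 TPM against 2146 and 2825 TPM in replicates 1 and 3. The part of muscle fiber type in the *kdr* level was not tested. As a share of *kdr* plus *kdrl* in TPM, *kdr* made up 8.72% to 15.6% in WT, 8.78% to 10.7% in *bves* KO and 9.62% to 16.1% in *bves* KO-EX, which overlapped.

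For *flt1*, whose product binds VEGF-A and restrains signalling through Vegfr2, the level was 45.4, 32.6 and 39.7 CPM in WT, 31.6, 34.2 and 37.0 CPM in *bves* KO, and 27.6, 15.7 and 22.9 CPM in *bves* KO-EX. WT and *bves* KO overlapped, and in CPM every *bves* KO-EX library was below every library of the other groups. The log2 fold change was -0.20 ± 0.22 in *bves* KO against WT (edgeR adjusted p 0.689). In *bves* KO-EX it was -0.64 ± 0.22 against *bves* KO (unadjusted p 0.0160, adjusted p 0.192). Against WT it was -0.83 ± 0.23 with a 95% interval of -1.33 to -0.34, and the adjusted p of 0.0560 missed the threshold in edgeR and was 0.0107 in DESeq2. In that comparison the edgeR adjusted p was 0.0662 to 0.145 when 1 library was left out.

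The Vegfr3 gene *flt4* had few reads, with 15 to 52 estimated counts per library. Its level was 1.20, 1.28 and 0.760 CPM in WT, 1.77, 0.865 and 1.25 CPM in *bves* KO, and 1.39, 2.44 and 2.61 CPM in *bves* KO-EX. The *bves* KO-EX libraries were above WT and overlapped *bves* KO. In the lowest library, WT replicate 3, the 15 counts have an exact Poisson interval of 8.40 to 24.7, which covers counting error only. The libraries nearest across the gap were WT replicate 2 (17 counts) and *bves* KO-EX replicate 1 (25 counts). Their count intervals, 9.90 to 27.2 and 16.2 to 36.9, overlapped. The log2 fold change was 1.00 ± 0.38 in *bves* KO-EX against WT (edgeR unadjusted p 0.0244, adjusted p 0.137) and 0.72 ± 0.38 against *bves* KO (adjusted p 0.404). The 6 lymphatic endothelial markers summed to 2.00 to 3.14 TPM in WT, 2.85 to 3.54 TPM in *bves* KO and 3.59 to 4.66 TPM in *bves* KO-EX, none of them at 0 in all libraries. None of the 6 was called in any comparison by edgeR. At an unadjusted p under 0.05 were 1 in *bves* KO against WT (background 16.9%) and 1 in *bves* KO-EX against *bves* KO (15.3%). In *bves* KO-EX against WT there were 4 (25.1%). DESeq2 called 1, *prox1a*, lower in *bves* KO-EX against WT (background 11.8%). Their part in the *flt4* level was not tested.

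**Figure D3:**
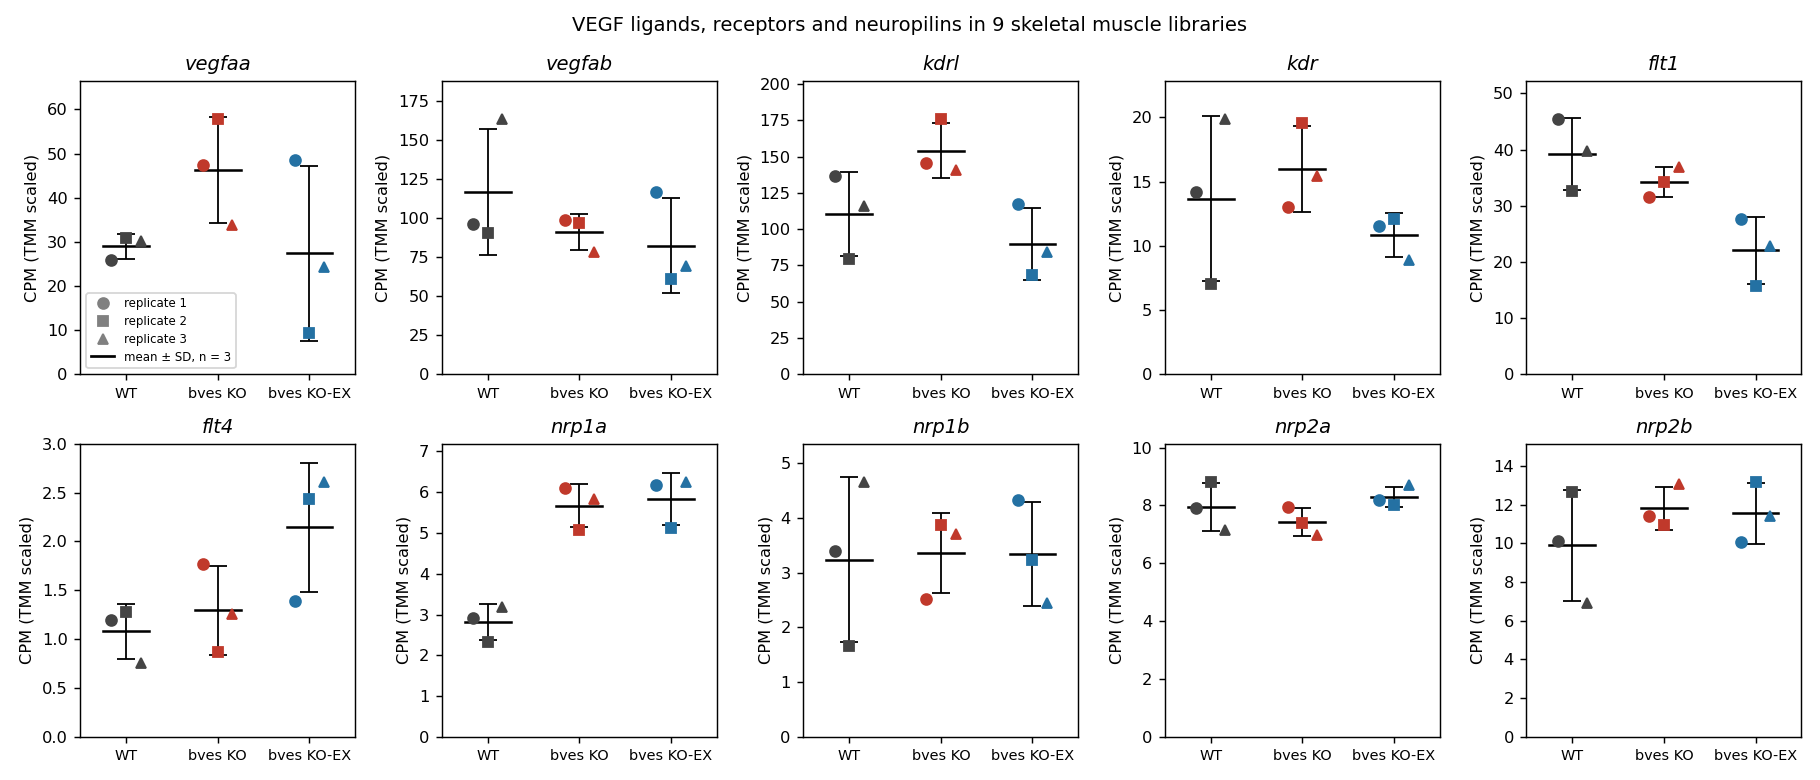
CPM of each gene in the 9 libraries by group, with a shape for each replicate and bars for the mean ± SD of 3 libraries. The *flt1* values of *bves* KO-EX lie below those of both other groups, the *nrp1a* values of WT lie below those of both other groups, and *vegfaa* spreads from 9.33 to 48.6 CPM within *bves* KO-EX.

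Among the neuropilins, *nrp1a* is the gene whose groups were furthest apart. It encodes a co-receptor that binds VEGF-A beside Vegfr2 and semaphorins beside plexins, and it is expressed by endothelial cells and neurons. Its level was 2.93, 2.33 and 3.19 CPM in WT, 6.11, 5.07 and 5.83 CPM in *bves* KO, and 6.17, 5.11 and 6.25 CPM in *bves* KO-EX. All 6 mutant libraries were above all 3 WT libraries, and both mutant groups covered nearly the same range. In *bves* KO against WT the log2 fold change was 1.00 ± 0.21 with a 95% interval of 0.53 to 1.47, an edgeR unadjusted p of 6.4e-04 and an adjusted p of 0.0528, just outside the threshold. DESeq2 gave an adjusted p of 0.00646 for it. Upper-quartile scaling and a minimum of 10 counts in every library gave edgeR adjusted p of 0.0462 and 0.0464, inside the threshold. Only these and DESeq2, 3 of 17 alternatives, were inside it. In edgeR, total-count scaling gave 0.162, the 6 libraries alone 0.0889 and no filter beyond 1 count 0.0615. Leaving out 1 library gave edgeR adjusted p of 0.0517 to 0.189 over 9 fits.

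Against WT, *nrp1a* rose in *bves* KO-EX with a log2 fold change of 1.04 ± 0.21, a 2.06-fold difference, and an edgeR adjusted p of 0.0239 (DESeq2 0.00239). The call was lost without WT replicate 1 (adjusted p 0.0716), WT replicate 2 (0.0602), *bves* KO-EX replicate 1 (0.0685) or *bves* KO-EX replicate 3 (0.0865). It was also lost when *bves* KO-EX replicates 1 and 3 were left out together, with a log2 fold change of 0.83 and an edgeR adjusted p of 0.257 on the 1 library left. Total-count scaling (0.0563) and a fit of the 6 libraries alone (0.0549) put it outside the threshold too. Between *bves* KO-EX and *bves* KO the log2 fold change was 0.04, with a 95% interval of -0.41 to 0.50. The summed markers of fibroblasts separated the same groups, at 92.7 to 114 TPM in WT, 183 to 266 TPM in *bves* KO and 206 to 347 TPM in *bves* KO-EX (6 markers, none at 0 in all libraries). On the same list *pdgfra*, a growth factor receptor gene of fibroblasts, lay lower in *bves* KO than in WT (8.02 ± 0.748 against 14.9 ± 2.69 CPM, log2 fold change -0.89 ± 0.19, edgeR adjusted p 0.0560) and at 11.0 ± 1.11 CPM in *bves* KO-EX. The 7 markers of nerve and Schwann cells summed to 131 to 158 TPM in WT, 145 to 246 TPM in *bves* KO and 164 to 229 TPM in *bves* KO-EX. The part of either cell type in the *nrp1a* difference was not tested.

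The other neuropilins overlapped between WT and both mutant groups. The level of *nrp1b*, the second neuropilin 1 gene, was 3.40, 1.66 and 4.66 CPM in WT, 2.52, 3.86 and 3.70 CPM in *bves* KO, and 4.34, 3.24 and 2.45 CPM in *bves* KO-EX. That of *nrp2a*, a semaphorin and VEGF-C co-receptor gene, was among the steadiest, at 7.14 to 8.81 CPM in WT, 6.97 to 7.94 CPM in *bves* KO and 8.02 to 8.70 CPM in *bves* KO-EX. Its *bves* KO-EX range began just above the *bves* KO range, with a log2 fold change of 0.16 ± 0.17 (edgeR adjusted p 0.749). The level of its paralog *nrp2b* was 6.94 to 12.7 CPM in WT, 11.0 to 13.1 CPM in *bves* KO and 10.1 to 13.2 CPM in *bves* KO-EX. Over these 3 genes and the 3 comparisons, the 9 log2 fold changes lay between -0.10 and 0.26. As a share of the summed TPM of the 4 neuropilins, *nrp1a* took 8.28% ± 2.04 for WT, 13.6% ± 1.48 for *bves* KO and 13.8% ± 2.45 for *bves* KO-EX (SD, n = 3). The WT range lay below both others (exact permutation p = 0.1 in each, the smallest possible, which lack of overlap fixes). The sum itself was 5.59 ± 1.52, 6.68 ± 0.515 and 6.96 ± 0.815 TPM with overlap. From estimated counts per length in place of TPM, the share differed from WT by 8.98 and 9.17 percentage points in place of 5.27 and 5.51. This share and the ratios that follow were also chosen after the values were seen.

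The ratio of *flt1* to *kdrl* sets the receptor gene that restrains VEGF-A against the one that signals, neither of which was called by edgeR in any comparison. In TPM it was 0.673, 0.833 and 0.693 for WT, 0.444, 0.389 and 0.531 for *bves* KO, and 0.467, 0.437 and 0.537 for *bves* KO-EX. Each WT library had a higher ratio than each mutant library, with means of 0.733, 0.455 and 0.480. The exact permutation p was 0.7 between the mutant groups. For WT against either mutant group it was 0.1, the smallest possible. Lack of overlap fixes that value, so it adds no support. In CPM, the *kdrl* range of *bves* KO lay above that of WT while the *flt1* ranges overlapped, and both receptors were lower in *bves* KO-EX than in *bves* KO without overlap. Computed from estimated counts per length in place of TPM, the difference from WT was -0.19 for *bves* KO and -0.16 for *bves* KO-EX, in place of -0.28 and -0.25.

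**Figure D4:**
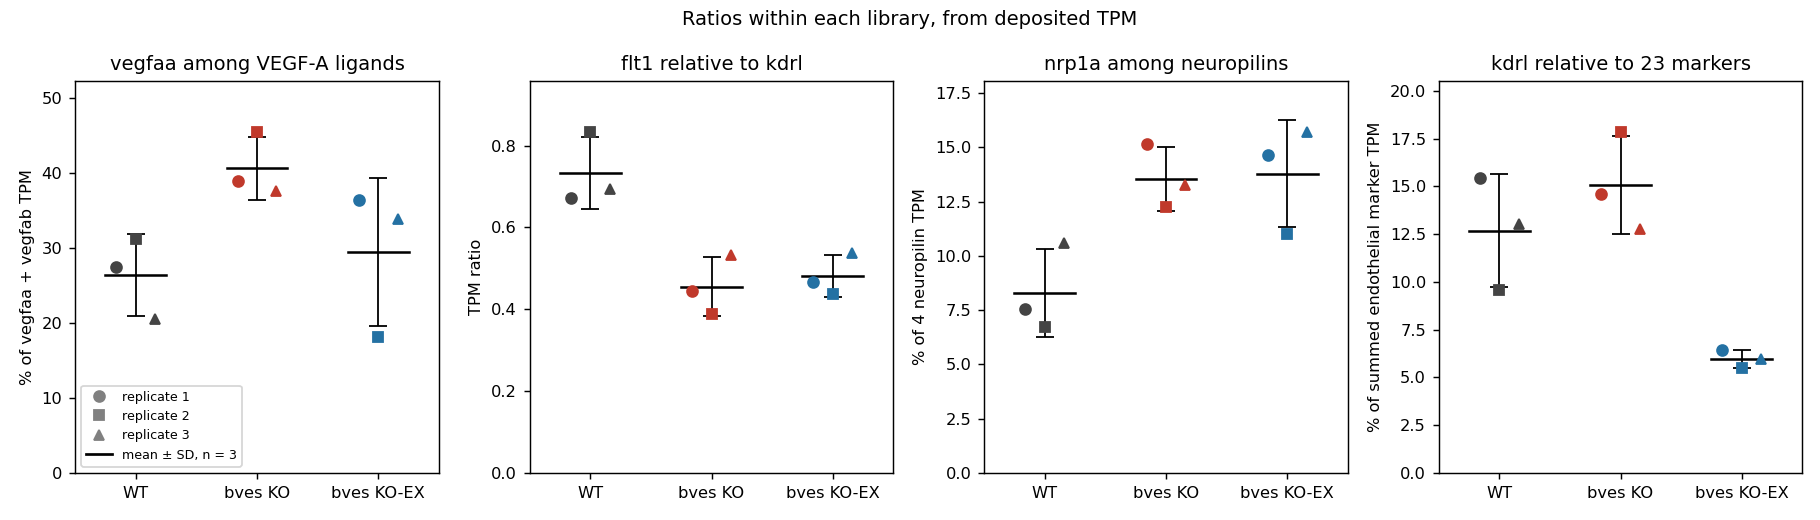
Ratios within each library by group, with a shape for each replicate and bars for the mean ± SD of 3 libraries: *vegfaa* in percent of both ligand genes, *flt1* per *kdrl*, *nrp1a* in percent of the 4 neuropilins, and *kdrl* in percent of the summed endothelial markers. The *vegfaa* share is highest in *bves* KO, the *flt1* ratio is highest in WT, the *nrp1a* share is lowest in WT, and the *kdrl* level per marker sum is lowest in *bves* KO-EX.

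The VEGF receptors are made mainly by endothelial cells, so their levels were set beside 23 other endothelial markers, none of which was at 0 in any library. The summed TPM of these markers was 92.0 to 165 for WT, 152 to 185 for *bves* KO and 230 to 278 for *bves* KO-EX. The group with the lowest mean of *flt1* and of *kdrl* thus had the highest endothelial sum, in which abundant genes such as *plvapb* and *cldn5b* weigh most. Most of its difference from *bves* KO in that sum came from *plvapb* and *cldn5b*. Against *bves* KO, the median log2 fold change of the 23 markers was 0.32, against 0.01 over all genes, and 3 were called by edgeR (background 1.64%). The *bves* KO-EX group also had the highest sums of 10 mural cell markers (194 to 232 TPM, against 95.1 to 157 in WT and 111 to 150 in *bves* KO). Against *bves* KO, 7 of these 10 had a log2 fold change above 0, and edgeR called 1, *acta2* (background 1.64%). That call was lost in 7 of 9 fits without 1 library. The lowest was *kcne4*, at -0.88 ± 0.31 (edgeR adjusted p 0.184). Against WT, 0 of the 10 were called by edgeR (background 5.39%). The 8 erythrocyte markers summed to 1424 to 2005 TPM in *bves* KO-EX (against 856 to 1168 in WT and 1086 to 1550 in *bves* KO). The 6 epidermis markers summed to 209, 152 and 56.4 TPM in *bves* KO-EX replicates 1 to 3, against 27.4 to 94.0 TPM in WT and 46.1 to 67.9 TPM in *bves* KO. Their part in the receptor levels was not tested. In percent of the summed endothelial markers, *kdrl* was 12.7 ± 2.95 for WT, 15.1 ± 2.57 for *bves* KO and 5.97 ± 0.485 for *bves* KO-EX (SD, n = 3). The *bves* KO-EX range lay below both others. With 3 against 3, groups that do not overlap always give an exact permutation p of 0.1, so that p adds no support. For *flt1* the percentages were 9.12 ± 1.21, 6.74 ± 0.229 and 2.88 ± 0.426, and no groups overlapped. Without the abundant genes *plvapb* and *cldn5b*, left out after their values were seen, the *kdrl* percentages were 15.9, 18.1 and 9.62, with *bves* KO-EX still clear of the others.

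A geometric mean, which gives each marker the same weight, showed the same order. On the log2 scale *kdrl* exceeded it by 2.10 ± 0.21 for WT, 2.36 ± 0.22 for *bves* KO and 1.35 ± 0.18 for *bves* KO-EX (SD, n = 3). For *flt1* the excess was 1.65 ± 0.06, 1.21 ± 0.05 and 0.29 ± 0.26, with no overlap between groups. In *bves* KO-EX replicate 2, whose *bves* level was in the *bves* KO range, the excess was 1.19 for *kdrl* and -0.0057 for *flt1*, the lowest of the 9 libraries in each case.

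The individual endothelial markers did not move as one. In *bves* KO against WT, 1 of 23 was called by edgeR (background 1.11%), *sox18*, a transcription factor of endothelial development, which rose with a log2 fold change of 1.63 ± 0.20 (adjusted p 0.0051) and kept the call in each of 9 fits without 1 library. Between the mutant groups, edgeR called 3 of 23 (background 1.64%), all higher in *bves* KO-EX, and 9 of 23 had a log2 fold change below 0. The 3 were *plvapb*, which forms the diaphragms of fenestrated capillaries (1.72 ± 0.22, adjusted p 0.00748), the ETS factor *fli1b* (1.00 ± 0.20, adjusted p 0.0384) and the tight junction gene *cldn5b* (1.33 ± 0.28, adjusted p 0.0438). Among the others, *mmrn2b* (-1.0, adjusted p 0.288), *cldn5a* (-0.82, adjusted p 0.614), *sox17* (-0.81, adjusted p 0.149) and *sox18* (-0.78, adjusted p 0.0816) were at or below the log2 fold change of *kdrl*. These 4 were singled out after their values were seen. The *plvapb* call was lost without *bves* KO replicate 1 (adjusted p 0.0641). The *fli1b* call stood only without WT replicate 2 or 3 (adjusted p 0.0252 to 0.162 over the 9), and the *cldn5b* call only without WT replicate 2 or *bves* KO-EX replicate 2 (0.0374 to 0.170). The first was also lost under total-count scaling (0.114) and the second with only the 6 libraries compared (0.0650). Against WT, *plvapb* rose by 2.11 ± 0.23 (adjusted p 0.0014), and *sox7* and *sox18* by 1.19 and 0.84 (adjusted p 0.0118 and 0.0374). These were 3 of 23 (background 5.39%). The *plvapb* and *sox7* calls against WT stood in each of 9 fits without 1 library, while that of *sox18* stood only without WT replicate 3, *bves* KO replicate 2 or *bves* KO replicate 3 (adjusted p 0.0297 to 0.0939 over the 9), and not under total-count scaling (0.0910) or with the 6 libraries alone (0.0546). With *bves* KO-EX replicates 1 and 3 left out, the log2 fold changes against *bves* KO were 1.64 for *plvapb*, 0.94 for *fli1b* and 0.78 for *cldn5b*. Against WT they were 0.86 for *sox7* and 0.91 for *sox18*. The median log2 fold changes of the 23 markers were 0.12, 0.32 and 0.31 in the 3 comparisons in that order, against -0.03, 0.01 and 0.01 over all genes.

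**Figure D5:**
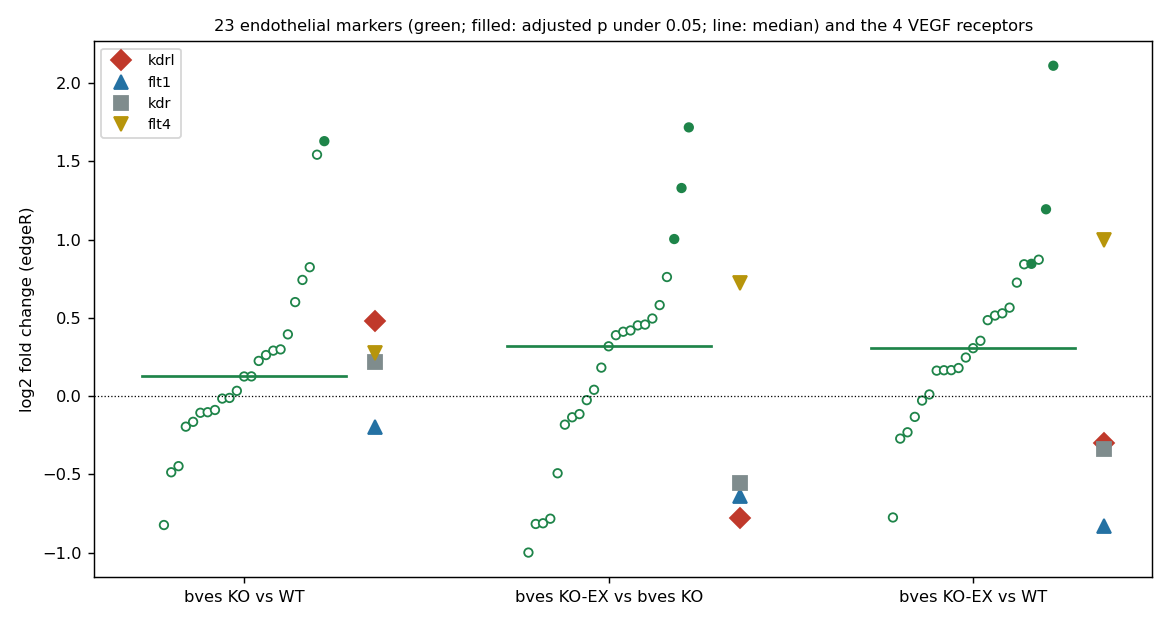
Log2 fold changes from edgeR for 23 endothelial markers (green circles, filled where the adjusted p is under 0.05, with a line at the median) and for the 4 VEGF receptors (colored symbols) in the 3 comparisons. In *bves* KO-EX against *bves* KO the markers run from -1.0 to 1.72 with a median of 0.32, and the receptors from -0.78 (*kdrl*) to 0.72 (*flt4*), within the range of the markers.

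Other ligands of the family had lower mean TPM than *vegfaa* and *vegfab*. The lymphatic growth factor gene *vegfc*, whose product acts on Vegfr3, was at 2.21, 2.33 and 1.27 CPM in WT, 1.66, 2.65 and 1.74 CPM in *bves* KO, and 0.889, 0.610 and 0.815 CPM in *bves* KO-EX. Every *bves* KO-EX library was below every other library, on 13 to 16 estimated counts. The log2 fold change was -1.38 ± 0.36 against *bves* KO (edgeR adjusted p 0.0883) and -1.32 ± 0.36 against WT (edgeR adjusted p 0.0585), and DESeq2 called it in both. The gene *vegfd* stood at 3.39 to 7.05 CPM over the 9 libraries, with a mean of 3.45 TPM, above that of *kdr* (2.41 TPM). For *pgfb*, a placenta growth factor gene, the level was 0.151 to 0.797 CPM, on 2 to 17 estimated counts. Neither *vegfd* nor *pgfb* was called by edgeR or DESeq2. Of these 3 genes, 0 were called by edgeR in any comparison. An unadjusted p under 0.05 was seen for *vegfc* alone, against *bves* KO (background 15.3%) and WT (25.1%) in *bves* KO-EX. The counts of *vegfba* were 3 to 27, under the filter, and *vegfbb* had 0 in all libraries, where a count of 0 allows up to 3 counts in a library.

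Upstream of *vegfaa*, hypoxia-inducible factors are known activators of VEGF-A transcription. The list tested held 17 genes, for these factors, their partners, the hydroxylases and Vhl proteins that restrain them, and the coactivators and receptor of the Pgc-1 route. Of these, 1 was called in *bves* KO against WT (background 1.11%), *epas1a* (Hif2a), which rose from 18.7 ± 1.84 to 50.8 ± 16.6 CPM. Its log2 fold change was 1.44 ± 0.30 with an edgeR adjusted p of 0.0498. In *bves* KO-EX it was 42.6 ± 15.2 CPM, which was 1.19 ± 0.30 above WT (adjusted p 0.0452), the only call of the 17 in that comparison (background 5.39%). Leaving out 1 library kept the first call only without *bves* KO-EX replicate 1 or 2 (adjusted p 0.0200 to 0.155 over the 9) and the second only without *bves* KO replicate 2 or *bves* KO-EX replicate 2 (0.0228 to 0.128). The first was also lost under total-count scaling (0.0518) and the second with only the 6 libraries compared (0.0611). With *bves* KO-EX replicates 1 and 3 left out together, the log2 fold change of *epas1a* against WT was 0.46. Between the mutant groups none of the 17 was called by edgeR (background 1.64%). At an unadjusted p under 0.05 was 1 (background 15.3%), *esrra* (-1.69, edgeR adjusted p 0.113), which DESeq2 called (background 4.61%). The median log2 fold change of the 17 was 0.42, -0.25 and -0.00 in the 3 comparisons.

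Downstream of the receptors, 52 genes of the VEGF signalling pathway were tested. In *bves* KO against WT 1 was called (background 1.11%), the Ras gene *hrasa*, which rose by 1.37 ± 0.28 (edgeR adjusted p 0.0435). Between the mutant groups 1 was called (background 1.64%), *pik3r1*, a regulatory subunit gene of phosphoinositide 3-kinase. It fell from 235 ± 12.7 to 94.6 ± 9.91 CPM (-1.31 ± 0.22, edgeR adjusted p 0.0208). Against WT, *pik3r1* fell by 1.02 (adjusted p 0.0264) and the MAP kinase kinase gene *map2k1* by 1.45 (adjusted p 0.0228), while *hrasa* rose by 1.11 (adjusted p 0.0435). The background of that comparison was 5.39%. Leaving out 1 library ended the *hrasa* call of *bves* KO in 6 of 9 cases (all but WT replicate 3 and *bves* KO-EX replicates 1 and 2, adjusted p 0.0401 to 0.136) and that of *bves* KO-EX in 8 of 9 (all but WT replicate 3, 0.0363 to 0.128). It ended the other 3 calls in 5 of 9 cases each, which for all of them included each *bves* KO-EX library. The others were *bves* KO replicates 1 and 3 for *pik3r1* against *bves* KO (0.0155 to 0.0872), WT replicate 2 and *bves* KO replicate 1 for *pik3r1* against WT (0.0354 to 0.0853), and WT replicates 1 and 2 for *map2k1* (0.00603 to 0.0752). Total-count scaling ended the *hrasa* call of *bves* KO (0.0528), and a fit of the 6 libraries alone ended both *hrasa* calls (0.0607 and 0.0903) and that of *pik3r1* against WT (0.0705). With *bves* KO-EX replicates 1 and 3 left out together, the log2 fold change of *pik3r1* was -1.51 against *bves* KO and -1.23 against WT. Against WT, *map2k1* was then at -1.54 and *hrasa* at 0.79. No call of this group in the pathway lists stood on the 1 library left, which has little power to call any gene. The median of the 52 was 0.03, -0.12 and -0.08.

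Neuropilins also serve semaphorins, and 18 semaphorin and plexin genes were tested. The class 3 semaphorin *sema3b* rose in *bves* KO against WT, from 21.7 ± 2.17 to 45.3 ± 4.40 CPM (log2 fold change 1.06 ± 0.21, edgeR adjusted p 0.0391). It was the 1 call of the 18 in that comparison (background 1.11%). Within the mutants, *sema3fb* fell by 0.98 in *bves* KO-EX (adjusted p 0.0360) and *sema3bl* rose by 1.39 (adjusted p 0.0440), with a background of 1.64%. Against WT none of the 18 was called by edgeR (background 5.39%), with 7 at an unadjusted p under 0.05 (background 25.1%). DESeq2 called 3, *plxna3*, *plxnb1b* and *sema3bl* (background 11.8%). Leaving out 1 library kept the *sema3b* call only without *bves* KO-EX replicate 1 or 2 (adjusted p 0.0258 to 0.138 over the 9), and those of *sema3fb* and *sema3bl* only without WT replicate 2 or 3 (0.0254 to 0.132 and 0.0358 to 0.170). All 3 were lost under total-count scaling (0.0916, 0.202 and 0.0660), and *sema3fb* with upper-quartile factors (0.0514). With *bves* KO-EX replicates 1 and 3 left out, the log2 fold changes against *bves* KO were -0.91 for *sema3fb* and 1.08 for *sema3bl*.

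Delta-Notch signals, angiopoietins and secreted inhibitors shape how endothelial cells answer VEGF, and 30 genes of these kinds were tested. The Notch target *hey1* rose in *bves* KO against WT, from 4.88 ± 1.38 to 12.5 ± 2.73 CPM (1.35 ± 0.25, edgeR adjusted p 0.0326). In *bves* KO-EX it was 4.63 ± 0.599 CPM, which was 1.44 below *bves* KO on the log2 scale (adjusted p 0.0232). The metalloproteinase gene *adamts1*, whose product binds VEGF and inhibits angiogenesis, fell in *bves* KO-EX against *bves* KO, from 16.2 ± 3.39 to 2.79 ± 0.928 CPM (-2.53 ± 0.34, adjusted p 0.00955). It also fell against WT by 1.49 (adjusted p 0.0326), where *col18a1b*, the source gene of endostatin, rose by 0.86 (adjusted p 0.0409). For *dll4*, the Notch ligand of sprouting tip cells and a target of VEGF signalling, the levels were 42.6 ± 5.71 CPM in WT, 58.6 ± 5.75 CPM in *bves* KO and 32.3 ± 6.32 CPM in *bves* KO-EX. Its log2 fold change of -0.86 ± 0.20 in *bves* KO-EX against *bves* KO had an edgeR adjusted p of 0.0665. In total 1 of 30 was called in *bves* KO against WT (background 1.11%). There were 2 calls in *bves* KO-EX against *bves* KO (1.64%) and 2 in *bves* KO-EX against WT (5.39%). The *adamts1* call against *bves* KO was lost without *bves* KO replicate 1 (adjusted p 0.0528), and its call against WT without WT replicate 1, *bves* KO replicates 1 and 3 or *bves* KO-EX replicates 1 and 3 (0.0309 to 0.113 over the 9). The *hey1* call in *bves* KO against WT was lost without WT replicates 2 and 3, *bves* KO replicates 1 and 3 or *bves* KO-EX replicate 3, each alone (0.0281 to 0.147), and that between the mutant groups without *bves* KO replicate 1 or 3 or any *bves* KO-EX library (0.0253 to 0.113). The *col18a1b* call stood only without WT replicate 3 or *bves* KO-EX replicate 2 (0.0369 to 0.142). With *bves* KO-EX replicates 1 and 3 left out, the log2 fold changes against *bves* KO were -2.09 for *adamts1* and -1.67 for *hey1*. Against WT they were -1.05 for *adamts1* and 0.50 for *col18a1b*. Total-count scaling ended both *hey1* calls (0.0923 and 0.0868) and that of *adamts1* against WT (0.0936), and the 6 libraries alone ended those of *hey1* (0.0574), *adamts1* (0.0674) and *col18a1b* (0.0767) against WT.

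The genes whose pattern over the 9 libraries was closest to that of *vegfaa*, by Pearson's r of log2 CPM among all genes tested, were *psmb13a* (0.98), *mafb* (0.95), *slc25a25a* (0.95), *rhoub* (0.94) and *c7b* (0.93). Like *vegfaa*, all 5 were lowest in *bves* KO-EX replicate 2 (*slc25a25a* at 77.0 CPM there, against 157 to 512 CPM elsewhere). Closest to *kdrl* were *zswim5* (0.96), *kdm7aa* (0.96), *mast2* (0.95), *lhx6* (0.94) and *csrnp1b* (0.94). All 5 of these, too, had their highest value in *bves* KO replicate 2 and their lowest in *bves* KO-EX replicate 2, as *kdrl* did. None of the 10 nearest genes is another VEGF gene or one of the endothelial markers. These values are descriptions, since the nearest genes were picked from all genes over the same 9 libraries.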

How the data were processed

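The authors deposited estimated counts (expected counts) per Ensembl gene and TPM, their scaling of those counts for gene length and library size. The submitters' processing notes name fastp, HISAT2, StringTie and RSEM, with versions, genome build and annotation not given in the sources used here, so no coordinates are printed. The deposited tables also hold the authors' group means, fold changes, p-values and adjusted p-values, which were not used.

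Counts were rounded and fitted with edgeR 4.0.16 in R 4.3.3 (TMM factors, filterByExpr, robust quasi-likelihood test, all 9 libraries, group as the only term, Benjamini-Hochberg adjustment over 14849 genes). A call is an adjusted p under 0.05. The fit was tested on simulated data. DESeq2 1.42.0, other scalings and filters, a replicate block and leaving out libraries were alternatives.

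Each library pooled 2 fish. No source used here says how libraries of a group were otherwise separated, so p-values measure only the spread between these libraries. Of the VEGF ligand, receptor and neuropilin genes tested, depth limits *pgfb* (2 to 17 estimated counts per library), *vegfc* and *flt4* most. Ratios used TPM, with exact permutation tests. The named genes were the 10 genes, *bves*, all measured other VEGF ligands, up to 4 genes with the smallest adjusted p per list and comparison, and the 5 genes nearest in pattern to *vegfaa* and to *kdrl*. The genes and lists were chosen with earlier results of these data known.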

Additional observations from a re-analysis of the deposited data

How the results depend on the processing

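Of the 10 VEGF genes, the number called in *bves* KO against WT was 0 and became 1 (*nrp1a*) under DESeq2, upper-quartile factors and a minimum of 10 counts in every library. In *bves* KO-EX against WT it was 1 and became 2 under DESeq2, 0 under total-count scaling, 0 with only the 6 libraries compared, 0 with *bves* KO-EX replicates 1 and 3 left out, and 0 to 1 when 1 library was left out. Between the mutant groups it was 0 under every alternative run. With the replicate number as a block, 0, 0 and 1 of the 10 were called, and the edgeR adjusted p of *nrp1a* against WT was 0.0663 for *bves* KO and 0.0310 for *bves* KO-EX. Deviations from the group means correlated at -0.28 to 0.16 between libraries with the same number, so no pairing was assumed. Among the other genes named, the block ended the calls of *epas1a* and *hrasa* against WT in both groups, of *adamts1* and *col18a1b* in *bves* KO-EX against WT, and of *fli1b*, *cldn5b*, *sema3fb* and *sema3bl* between the mutant groups (adjusted p 0.0505 to 0.0991). The cause of these shifts was not tested.

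Over all genes, 165, 243 and 801 were called in *bves* KO against WT, *bves* KO-EX against *bves* KO and *bves* KO-EX against WT. DESeq2 called 709, 685 and 1752, and total-count scaling 82, 109 and 411. The 6 libraries alone gave 317 for the last comparison, the replicate block 147 for the second, and *bves* KO-EX without replicates 1 and 3 gave 5 and 52 for its comparisons. Without 1 library the counts ran from 34 to 224, 20 to 255 and 166 to 1135. Under total-count scaling all genes shifted by a median of 0.11 (log2) in each *bves* KO-EX comparison. The share of calls that were higher went from 44.0% to 55.0% against *bves* KO and from 56.7% to 70.8% against WT (68.5% with upper-quartile factors).

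Log2 fold changes near 0 turned in sign, and the cause was not tested. In *bves* KO against WT, *nrp1b* was -0.023 under total-count scaling. Between the mutant groups, *nrp1b* was 0.10 under total-count scaling, 0.045 with upper-quartile factors and 0.018 with a minimum of 10 counts, *nrp2b* was 0.082 under total-count scaling and 0.029 with upper-quartile factors, and without *bves* KO-EX replicates 1 and 3 *nrp1a* was -0.17 and *nrp2b* 0.14. In *bves* KO-EX against WT without those libraries, *nrp1b* was -0.036 and *nrp2a* -0.0058. Leaving out 1 library gave ranges that crossed 0 in *bves* KO against WT for *kdr* (-0.082 to 0.58), *flt4* (-0.013 to 0.50) and *nrp1b* (-0.25 to 0.38). Between the mutant groups they were *vegfab* (-0.48 to 0.032), *nrp1a* (-0.036 to 0.13), *nrp1b* (-0.24 to 0.16) and *nrp2b* (-0.14 to 0.061), and in *bves* KO-EX against WT *vegfaa* (-0.78 to 0.34), *kdr* (-0.64 to 0.021), *nrp1b* (-0.26 to 0.37) and *nrp2a* (-0.015 to 0.15). The other member fold changes kept their sign in all alternatives. Ratios whose groups did not overlap kept their direction without 1 library. From estimated counts per length, an alternative chosen after seeing the data, the *nrp1a* share differed from WT by 8.98 and 9.17 percentage points, in place of 5.27 and 5.51.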

Other observations

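The collagen I gene *col1a1a* rose from 112 ± 21.1 CPM in WT to 293 ± 79.2 CPM in *bves* KO (SD, n = 3, edgeR log2 fold change 1.39 ± 0.28, adjusted p 0.0434), a call that stood only without *bves* KO-EX replicate 1 or 2 when 1 library was left out (adjusted p 0.0421 to 0.169) and was lost with only the 6 libraries compared. In *bves* KO-EX it was 444 ± 88.6 CPM, 1.99 ± 0.28 above WT (adjusted p 0.00575), and *col1a2* rose by 1.70 ± 0.27 (adjusted p 0.00979). Both calls stood in each of 9 fits without 1 library. With *bves* KO-EX replicates 1 and 3 left out together, which leaves 1 library, the log2 fold changes against WT were 2.04 and 1.82. Of 6 fibroblast markers, *bves* KO had 1 called against WT (background 1.11%) and *bves* KO-EX had 3 (5.39%). Between the mutant groups 0 were called by edgeR (1.64%) and 0 by DESeq2 (4.61%), and 2 had an unadjusted p under 0.05 (15.3%). On the same list *pdgfra* lay lower than in WT, by 0.89 in *bves* KO on the log2 scale (adjusted p 0.0560, called by DESeq2) and by 0.44 in *bves* KO-EX (adjusted p 0.179).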
